A study of Mus musculus with 9 samples.

Results

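The TRIM genes encode a family of ubiquitin ligases, and their transcripts were followed here in 3T3 cells, a fibroblast line of mouse embryonic origin that grows without limit. Levels were read from Affymetrix mouse Gene 1.0 ST arrays. A transcript cluster, the array's unit for a gene, was taken as a member where its annotation gave 1 symbol that starts with Trim and a digit. This selected 58 of the 19698 genes with a symbol of their own. A further 2 transcript clusters list several Trim symbols and nothing else, and these were kept apart. The 9 arrays fell into 3 groups of 3: BAF-knockdown cells given 5 ng/ml TNF-α for 1 h, control cells given the same treatment, and unstimulated control cells. The BAF-knockdown cells stably express a single retroviral shRNA against a sequence that Brg1 and Brm, the remodelling ATPases of the BAF complex, have in common, and were sorted for the GFP that the vector co-expresses. The sources used here do not say what the control cells carry. BAF-knockdown cells without TNF were not analysed here.

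Most TRIM proteins carry a RING finger, which recruits the ubiquitin-conjugating enzyme, followed by 1 or more B-boxes and a coiled coil through which they form dimers, and a few lack the RING finger. They differ in the domain that follows, which usually chooses the partner and sorts the family into classes, the PRY-SPRY class being the most numerous. Many members take part in antiviral defence, either by binding viral components or by modifying the proteins that signal from RNA and DNA sensors, and a number of them are induced by interferon. Others act far from immunity, in transcriptional repression, on microtubules or in muscle. TNF signals largely through the transcription factor NF-κB, and several TRIM proteins are known to act on that pathway.

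Values are log2 signals from RMA, and differences carry the standard error (SE) of limma, a linear model fitted over all genes. A gene is called at an adjusted p under 0.05 over all 19698 genes. The methods do not say which replicate number marks which day. A second fit treats arrays of the same number as paired, with the number as a block, and is given where it changes a call. Knockdown of Brg1 was seen in its gene, Smarca4, with signals of 10.50, 10.64 and 10.25 in BAF-knockdown cells, against 11.62, 11.53 and 11.56 in TNF-treated control cells (difference -1.11 ± 0.09, limma adjusted p = 0.00362). The Brm gene, Smarca2, had signals of 9.12, 9.38 and 9.12 in BAF-knockdown cells, against 9.51, 9.81 and 9.39 in TNF-treated control cells. It differed by -0.36 ± 0.20 and was not called (limma adjusted p = 0.734), nor with the block (-0.36 ± 0.10, adjusted p = 0.129). By quantitative RT-PCR the paper reports a larger reduction of both transcripts than was seen on these arrays. Here Smarca4 was 2.15-fold and Smarca2 1.29-fold lower than in TNF-treated control cells. Array means of 10 fibroblast markers lay between 11.89 and 12.04 in BAF-knockdown cells, between 12.11 and 12.34 in TNF-treated control cells and between 12.21 and 12.39 in unstimulated control cells. Array means of 9 leukocyte markers lay between 6.48 and 6.55 in BAF-knockdown cells and between 6.45 and 6.54 in TNF-treated control cells. For 10 epithelial and endothelial markers the range was 7.14 to 7.24 in BAF-knockdown cells and 7.09 to 7.19 in TNF-treated control cells, and for 10 skeletal muscle markers it was 7.49 to 7.56 in BAF-knockdown cells and 7.48 to 7.56 in TNF-treated control cells.

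In BAF-knockdown cells most Trim transcripts lay close to their level in control cells. The largest differences were 1.39 for Trim30a, 0.98 for Trim12c and 0.52 for Trim21 upward, and -0.74 for Trim2 and -0.61 for Trim16 downward, and of these only Trim30a and Trim2 were called, both in the fit with the block alone. In bulk RNA, a change in some of the cells and a smaller change in all of them cannot be told apart. The 58 differences ran from -0.74 to 1.39, with a median of 0.02 against 0.01 over all genes, and 36 lay above 0 and 22 below. In 44 members, or 75.9%, the difference was within 0.1 in either direction, compared with 71.9% of all genes. A difference over 0.3, the size that the methods use for BAF dependence, was reached by 4 members upward and 2 downward, which is 10.3% of members and 5.14% of all genes. Limma called 0 of the 58 (0.137% of all genes were called in either direction). Before adjustment, p was under 0.05 for 7 members higher and 2 lower (8.43% of all genes in either direction). The methods' t-test is stated for TNF induction only. Applied here together with the 0.3 difference, it passed 2 members higher and 2 lower (2.2% of all genes in either direction), and 0 after adjustment. With the replicate block, Trim30a was called higher (0.98% of all genes were called higher) and Trim2 lower (2.33% were called lower). Arrays of the groups did not overlap in 7 members that were higher in BAF-knockdown cells (4.63% of all genes) and in 3 that were lower (5.47%).

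**Figure D1:**
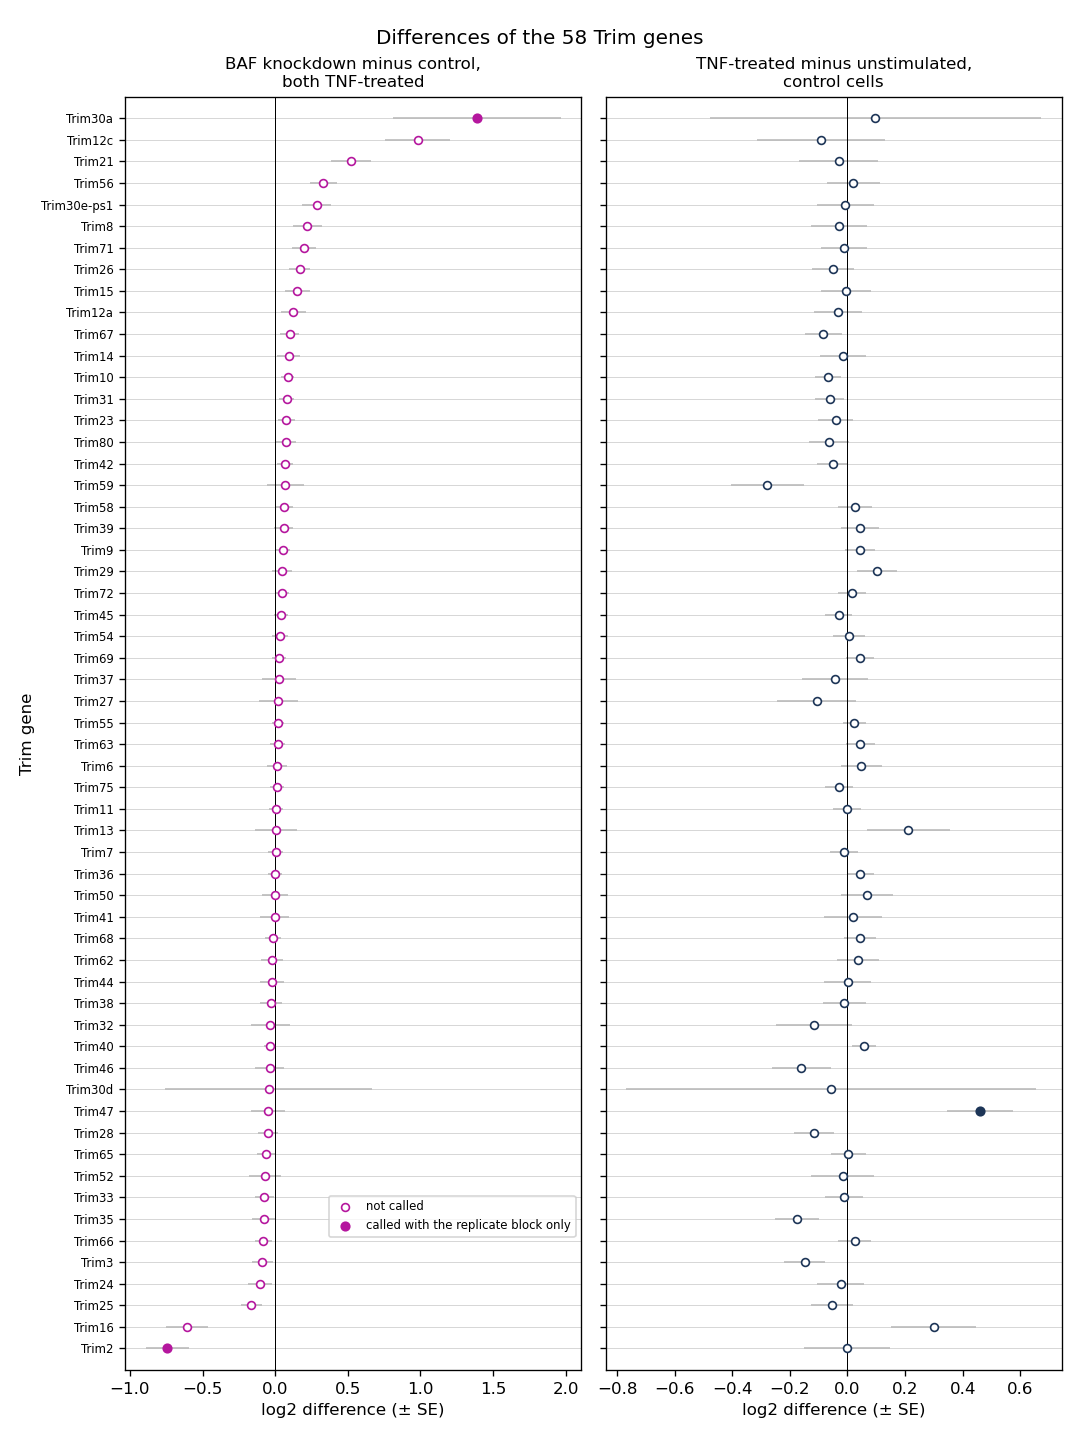
Log2 difference of each of the 58 Trim genes (y axis, ordered by the knockdown difference) with bars of 1 SE from limma, for the knockdown under TNF (left, BAF-knockdown minus control) and for TNF alone (right, TNF-treated minus unstimulated control), on separate x scales. Filled points were called with the replicate block only: Trim30a at 1.39 and Trim2 at -0.74 on the left, and Trim47 at 0.46 on the right.

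The largest difference in the family was that of Trim30a, a PRY-SPRY member that in mouse macrophages restrains NF-κB activation downstream of Toll-like receptors. Its signals were 11.05, 10.37 and 9.65 in BAF-knockdown cells, against 8.99, 9.64 and 8.27 in TNF-treated control cells and 9.04, 9.87 and 7.70 in unstimulated control cells. The lowest BAF-knockdown array thus lay only just above the highest TNF-treated control array, and below the highest unstimulated one. Trim30a averaged 10.36 ± 0.70 in BAF-knockdown cells and 8.97 ± 0.69 in TNF-treated control cells (SD, n = 3 each), a 2.62-fold difference of 1.39 ± 0.58. It was not called without the block (limma adjusted p = 0.549) and was called with it (1.39 ± 0.28, adjusted p = 0.0428). Between arrays of the same number, BAF-knockdown exceeded control by 2.06, 0.72 and 1.38, so the direction was shared by all 3 pairs. The blocked call was lost when the arrays numbered 1 or those numbered 3 were left out.

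Trim30a and its neighbour Trim30d also varied widely among control cells. Over the 6 control arrays the signal of Trim30d spanned 2.73, or 6.61-fold, and that of Trim30a 2.17, or 4.50-fold. Only 17 of the 19698 genes had a wider control range than Trim30d and 32 a wider one than Trim30a, while the median range was 0.20 for members and 0.23 for all genes. The third widest member, Trim47, spanned 0.82. In both control groups the array numbered 2 was the highest and the array numbered 3 the lowest for both genes. Trim30d had signals of 7.17, 6.68 and 6.53 in BAF-knockdown cells, against 6.78, 8.01 and 5.71 in TNF-treated control cells and 6.94, 8.23 and 5.50 in unstimulated control cells. Its BAF-knockdown arrays lay inside the control range, with a difference of -0.04 ± 0.71 (adjusted p = 0.997) and same-numbered differences of 0.39, -1.34 and 0.81 that did not share a sign. Over 18 alternatives its difference ran between -0.61 and 0.60. The 2 genes are paralogs, and whether probes of one also detect the other was not tested, so their values are uncertain to that extent. The share of this variation in the Trim30a difference was not tested.

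**Figure D2:**
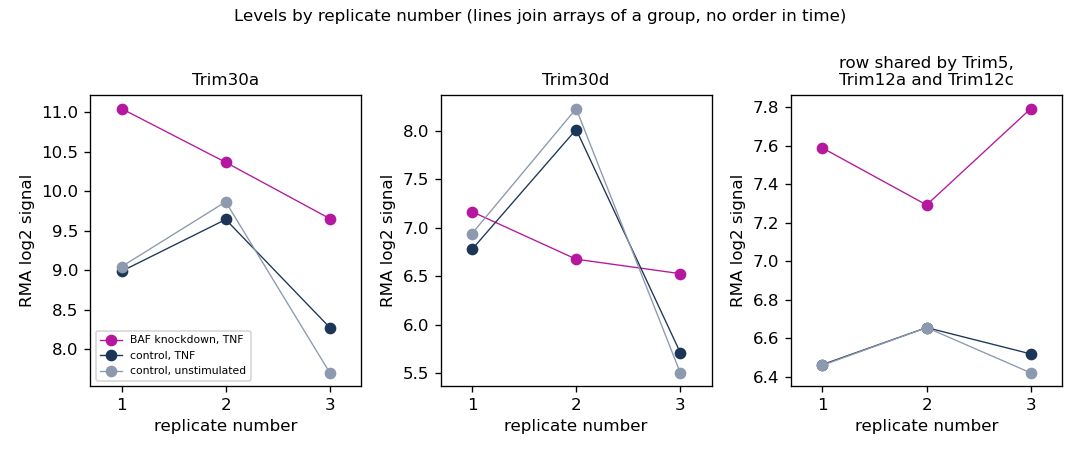
RMA log2 signal (y axis, a separate scale for each panel that does not start at 0) by replicate number (x axis) for Trim30a, Trim30d and the transcript cluster shared by Trim5, Trim12a and Trim12c, with 1 point per array and a line for each group. Control lines peak at number 2 for Trim30a and Trim30d (9.64 and 8.01 with TNF) and drop at number 3 (8.27 and 5.71), while the knockdown arrays of the shared cluster lie between 7.29 and 7.79, above all 6 control arrays.

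The Trim5 group, rodent relatives of the primate restriction factor TRIM5α that intercepts incoming retroviral capsids, gave the second largest difference. Trim12c had signals of 7.37, 6.71 and 7.75 in BAF-knockdown cells, against 6.15, 6.44 and 6.30 in TNF-treated control cells and 6.28, 6.52 and 6.37 in unstimulated control cells. All 3 BAF-knockdown arrays lay above all 6 control arrays. The difference was 0.98 ± 0.22, or 1.97-fold, and was not called (adjusted p = 0.153, or 0.0569 with the block). When 1 array was left out, the difference ran from 0.74 to 1.26, with a limma adjusted p of 0.00888 to 0.478. Among these fits it was called only without BAF-knockdown array 2, the knockdown array nearest to the controls (1.26, adjusted p = 0.00888). The transcript cluster that the annotation assigns jointly to Trim5, Trim12a and Trim12c behaved alike and with less spread, with signals of 7.59, 7.29 and 7.79 in BAF-knockdown cells, against 6.46, 6.66 and 6.52 in TNF-treated control cells and 6.46, 6.66 and 6.42 in unstimulated control cells. Its difference of 1.01 ± 0.12, or 2.02-fold, was called over all 27024 transcript clusters (limma adjusted p = 0.0383, and 0.0129 with the block), where 0.0259% were called higher (0.625% with the block). This call was lost when any 1 array other than BAF-knockdown array 2 was left out, with a difference of 0.89 to 1.14 and an adjusted p of 0.00582 to 0.259. Which of the 3 genes gave this signal cannot be told apart, since the annotation assigns the cluster to all 3. Trim12a on its own cluster was dim, at 5.13 ± 0.08 in BAF-knockdown cells and 5.01 ± 0.10 in TNF-treated control cells (SD, n = 3 each), and differed by 0.13 ± 0.08.

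Trim21, a cytosolic antibody receptor that marks antibody-coated viruses for the proteasome, had signals of 8.01, 7.92 and 8.49 in BAF-knockdown cells. TNF-treated control cells gave 7.56, 7.74 and 7.55, and unstimulated control cells 7.60, 7.75 and 7.59. The BAF-knockdown arrays again lay above all 6 control arrays, by a small margin for array 2, and the difference of 0.52 ± 0.14 (1.44-fold) was not called (adjusted p = 0.229, or 0.104 with the block). Trim56, which in human cells takes part in STING signalling and in defence against RNA viruses, had signals of 10.71, 10.54 and 10.96 in BAF-knockdown cells, against 10.40, 10.40 and 10.41 in TNF-treated control cells and 10.42, 10.41 and 10.32 in unstimulated control cells. The control arrays were nearly level and the BAF-knockdown arrays lay above them, with a difference of 0.33 ± 0.09 or 1.26-fold (adjusted p = 0.262, or 0.124 with the block).

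BAF-knockdown array 2 lay nearest to the controls in several of these genes. Without it the difference was 1.26 for Trim12c, 0.63 for Trim21, 0.43 for Trim56 and 1.14 for the shared cluster. Among the same-numbered differences, those of number 2 were the smallest, at 0.72 for Trim30a, 0.27 for Trim12c, 0.18 for Trim21 and 0.14 for Trim56.

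**Figure D3:**
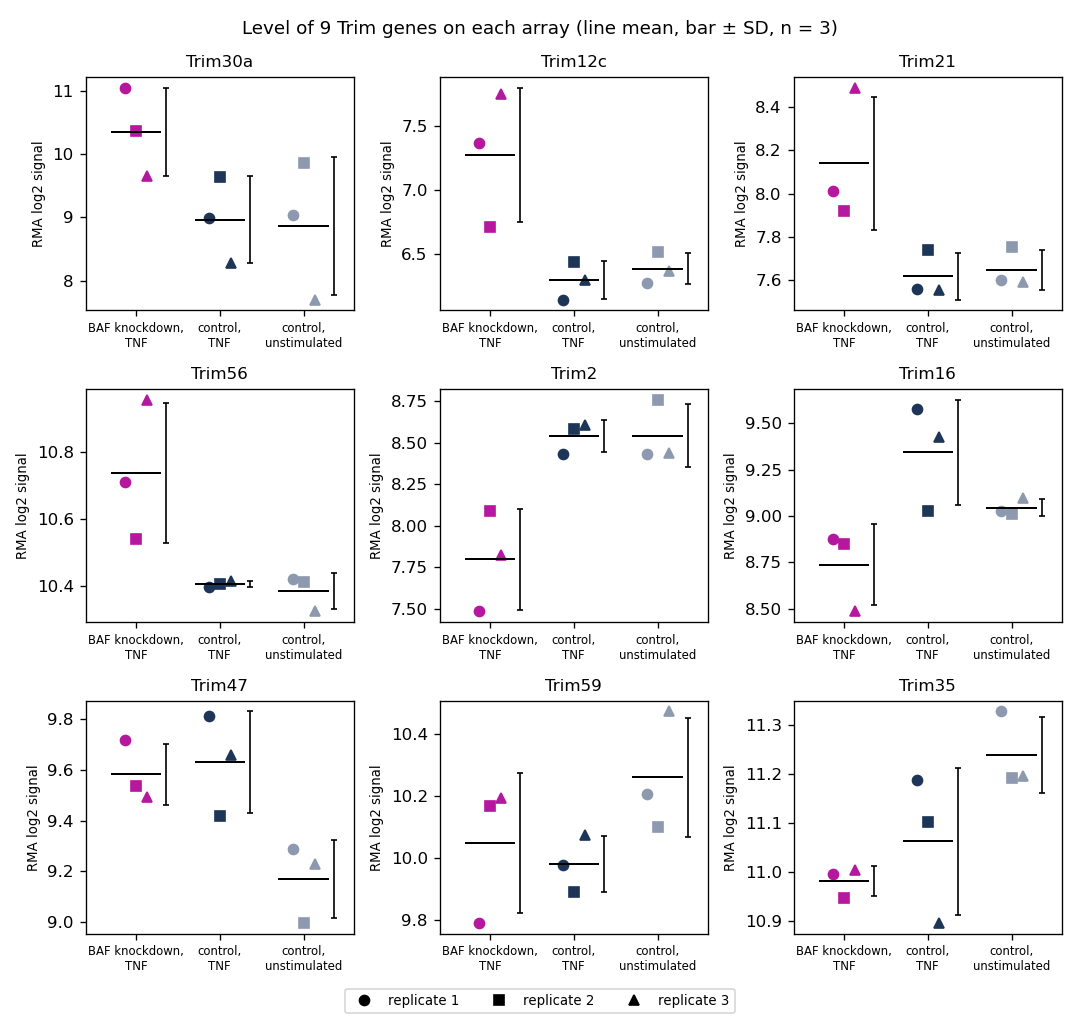
RMA log2 signal (y axis, a separate scale for each gene that does not start at 0) of 9 Trim genes in TNF-treated BAF-knockdown, TNF-treated control and unstimulated control cells (x axis), where each array is a point shaped by its replicate number, with a line at the mean and a bar of ± 1 SD (n = 3). Trim12c, Trim21 and Trim56 lie above all control arrays in BAF-knockdown cells, Trim2 and Trim16 lie below them, and Trim47 is higher in both TNF-treated groups, at 9.58 and 9.63, than in unstimulated cells, at 9.17.

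Of 16 interferon-linked TRIM genes listed, 11 had a transcript cluster of their own. Their median knockdown difference was 0.13 (0.01 over all genes), 8 lay above 0, and an unadjusted p under 0.05 was reached by 5 upward and 0 downward (8.43% of all genes in either direction). The median is the value of the dim Trim12a, and 5 of the 11 had a mean under 7 over the 9 arrays. Limma called 0 of the 11, and the block called Trim30a only (0.98% of all genes were called higher). Besides the genes above, Trim26, an antiviral regulator with a PRY-SPRY domain, differed by 0.17 ± 0.07, and its same-numbered differences were 0.19, -0.03 and 0.35. Trim14, which lacks a RING finger and in human cells serves as an adaptor of the mitochondrial RNA-sensing protein MAVS, differed by 0.09 ± 0.08. Trim6 (0.01 ± 0.07) and Trim38 (-0.03 ± 0.07), a brake on TNF and Toll-like receptor signalling, were dim on these arrays, with means over 9 arrays of 6.21 and 6.08. Trim25, the ligase that in human cells activates the RNA sensor RIG-I, went the other way. Its signals of 8.05, 8.13 and 8.08 in BAF-knockdown cells lay just below those of 8.17, 8.15 and 8.42 in TNF-treated control cells, a difference of -0.16 ± 0.07 (adjusted p = 0.608). Trim5, Trim30b, Trim30c, Trim34a and Trim34b were not analysed here as single genes.

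Chromosome 7 carries 12 of the 58 members. In RefSeq's gene order the TRIM genes there run Trim28, Trim21, Trim68, Trim6, Trim34a, Trim5, Trim12a, Trim34b, Trim12c, Trim30b, Trim30c, Trim30a, Trim30d, Trim30e-ps1, Trim3, Trim66 and Trim72. The 3 members with the largest positive knockdown differences, Trim30a, Trim12c and Trim21, all lie on it. Of the genes between them, Trim34a, Trim5, Trim34b, Trim30b and Trim30c have no transcript cluster of their own, and Trim12a and Trim6 were dim. The cluster shared by Trim5, Trim12a and Trim12c differed by 1.01. Trim68 (-0.02 ± 0.06) and Trim6 (0.01 ± 0.07), which stand between Trim21 and the Trim5 group, were at their control level within the SE. Trim30e-ps1, annotated as a pseudogene beside Trim30d, had a difference of 0.29 ± 0.10 with signals of 5.20, 5.14 and 5.08 in BAF-knockdown cells, against 4.84, 5.07 and 4.65 in TNF-treated control cells. That is the lowest signal of any member, and whether it exceeded background was not tested. Beyond it, Trim3 (-0.09 ± 0.07), Trim66 (-0.08 ± 0.06) and Trim72 (0.05 ± 0.05) were close to 0.

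**Figure D4:**
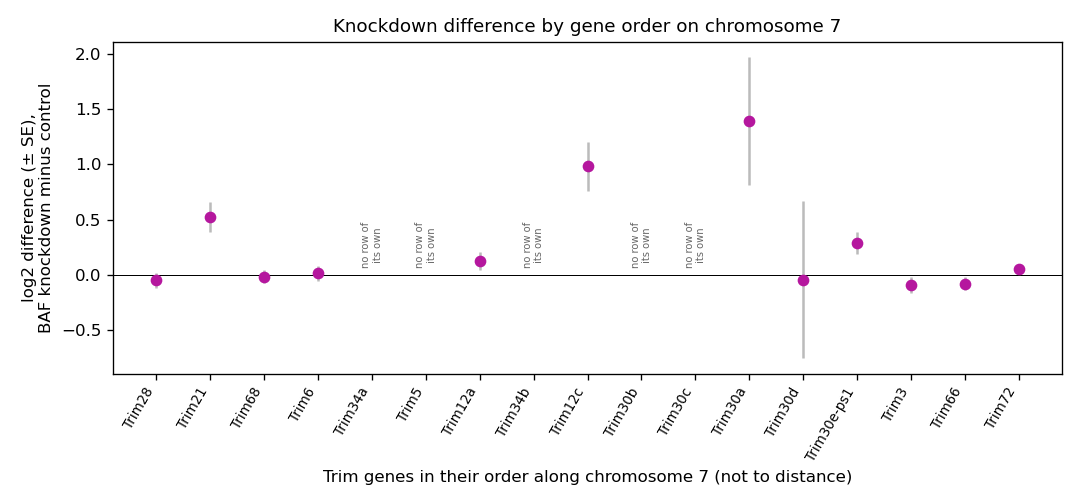
Log2 knockdown difference (y axis, TNF-treated BAF-knockdown minus TNF-treated control, with bars of 1 SE) of the Trim genes in their RefSeq order along chromosome 7 (x axis, rank and not distance). The highest points are Trim21 (0.52), Trim12c (0.98) and Trim30a (1.39), while Trim30d (-0.04) has an SE of 0.71 and Trim30e-ps1 lies at 0.29. Genes with no single-symbol transcript cluster are marked, among them direct neighbours of Trim12c and Trim30a.

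The promoters of these chromosome 7 genes are shown because the 3 genes with the largest positive differences lie on this chromosome and are interferon-linked. RefSeq promoters (GRCm38.p6, 250 bases before to 50 after the start, along the gene's strand) matched 45 of the 58 members, with 59 promoters. Capitals mark the core of the interferon-stimulated response element, GAAANNGAAA, searched on both strands, so that it can also read as its complement. All lie on the minus strand of chromosome 7 except Trim26, which lies on the plus strand of chromosome 17. For Trim30a the first of its 2 starts is shown, and for the last 4 genes only 60 bases around the motif.
Trim30a, chr7:104465144-104465443: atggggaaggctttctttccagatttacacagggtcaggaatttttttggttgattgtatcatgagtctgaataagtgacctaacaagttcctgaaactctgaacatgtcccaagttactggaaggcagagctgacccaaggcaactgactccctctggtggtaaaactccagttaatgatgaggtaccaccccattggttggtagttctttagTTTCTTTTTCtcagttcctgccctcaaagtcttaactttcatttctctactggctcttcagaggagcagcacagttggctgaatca
Trim12c, chr7:104353300-104353599: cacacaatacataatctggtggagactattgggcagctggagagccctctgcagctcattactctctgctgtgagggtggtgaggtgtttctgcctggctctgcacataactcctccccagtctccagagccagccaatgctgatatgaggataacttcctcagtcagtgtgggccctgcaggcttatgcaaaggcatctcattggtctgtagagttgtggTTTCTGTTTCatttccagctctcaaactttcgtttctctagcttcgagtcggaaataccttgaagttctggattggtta
Trim21, chr7:102565433-102565732: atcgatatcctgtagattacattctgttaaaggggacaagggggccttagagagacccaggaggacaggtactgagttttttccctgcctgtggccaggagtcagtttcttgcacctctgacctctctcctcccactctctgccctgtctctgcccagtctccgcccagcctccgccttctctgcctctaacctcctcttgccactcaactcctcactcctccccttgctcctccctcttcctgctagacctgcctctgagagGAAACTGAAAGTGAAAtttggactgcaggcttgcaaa
Trim30d, chr7:104507856-104507915: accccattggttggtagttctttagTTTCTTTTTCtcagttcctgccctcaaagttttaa
Trim5, chr7:104288121-104288180: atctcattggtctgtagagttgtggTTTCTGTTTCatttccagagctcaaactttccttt
Trim12a, chr7:104315451-104315510: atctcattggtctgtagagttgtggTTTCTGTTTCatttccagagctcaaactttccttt
Trim26, chr17:36836961-36837020: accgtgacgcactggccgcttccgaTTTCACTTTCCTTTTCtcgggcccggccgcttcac

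The motif was present in 8 of the 59 member promoters, those of Trim2, Trim12a, Trim12c, Trim21, Trim26, Trim30a and Trim30d, and in 3.44% of all 32851 promoters. It began 36 bases before the start in Trim30a, 29 before it in Trim12c, and at bases 14 and 20 after it in Trim21, where the 2 copies overlap. Both promoters of Trim30a held it. In Trim2, the gene that was called lower with the block, only 1 of 5 promoters did. Trim30d and Trim12a held the motif as well, with knockdown differences of -0.04 and 0.13, while the promoter of Trim56 did not. The promoters of Trim30a and Trim30d were identical at 93.6% of 295 aligned bases, and those of Trim12a and Trim12c at 95.0% of 260. Between the genes with the largest positive differences it was lower, at 71.1% of 253 for Trim30a and Trim12c and 69.1% of 236 for Trim30a and Trim21. Of 5 further motifs searched, again on both strands, the gamma-activated site TTCNNNGAA was in 6 member promoters (8.3% of all promoters), the AP-1 site TGANTCA in 9 (7.81%), the κB site in 4 (8.46%), the cAMP response element in 2 (1.79%) and the E-box CACGTG in 3 (7.15%). The motifs were chosen with the values known, and a match is a description of letters, not of a bound site.

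Trim2 and Trim16 were the members with the largest negative knockdown differences. Trim2, an NHL-repeat ligase studied mainly in neurons, where in mice it acts on neurofilament light chain, had signals of 7.48, 8.09 and 7.82 in BAF-knockdown cells, against 8.43, 8.58 and 8.61 in TNF-treated control cells and 8.43, 8.76 and 8.44 in unstimulated control cells. All 3 BAF-knockdown arrays lay below all 6 control arrays. Its difference of -0.74 ± 0.15, or 1.67-fold lower, was not called without the block (adjusted p = 0.110) and was called with it (-0.74 ± 0.09, adjusted p = 0.00643). Same-numbered differences were -0.95, -0.49 and -0.79. In the fit that has no block, leaving out 1 array gave a limma adjusted p of 0.0363 to 0.322. Among these fits Trim2 was called only without BAF-knockdown array 2 (-0.89, adjusted p = 0.0363). The blocked call was lost when the arrays numbered 1 or those numbered 3 were left out. Trim16, which lacks a RING finger and in human cells helps to clear damaged lysosomes, had signals of 8.88, 8.85 and 8.49 in BAF-knockdown cells, against 9.58, 9.03 and 9.42 in TNF-treated control cells and 9.03, 9.01 and 9.10 in unstimulated control cells. Its difference from TNF-treated control cells was -0.61 ± 0.15, or 1.52-fold lower (adjusted p = 0.185, or 0.0615 with the block). The same TNF-treated controls enter both comparisons, and for Trim16 they stood 0.30 ± 0.15 above unstimulated cells.

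The rest of the family is described by domain class, each as its range of knockdown differences. The 4 TIF1 members, corepressors with a PHD finger and a bromodomain, all lay slightly below 0: Trim24 at -0.11, Trim66 at -0.08, Trim33 at -0.08 and Trim28, the corepressor of zinc-finger repressors of retroelements, at -0.05, none of them called. With the block and without the arrays numbered 2, Trim24 stood at 0.01. The 7 COS-box members of classes I and II, which bind microtubules and include the muscle ligases Trim54, Trim55 and Trim63, lay between -0.04 (Trim46) and 0.10 (Trim67). The 5 members with a MATH, ARF, filamin or transmembrane domain lay between 0.01 and 0.08, with Trim23 and Trim59 at the upper end. Among the 5 members without a C-terminal domain, Trim8 differed by 0.22 ± 0.10 next to Trim56, and Trim52 by -0.07 ± 0.11. Beside Trim2, the NHL class held Trim71, a translational regulator of early embryonic cells, at 0.20 ± 0.08, as well as Trim3 and Trim32 at -0.09 and -0.03. The 27 PRY-SPRY members had a median of 0.01 and 17 above 0, so that Trim30a, Trim12c and Trim21 stood apart from most of their own class. The 4 members without a RING finger had Trim16 at one end and Trim14 at the other. Trim42 (0.07) was listed apart as other, and Trim80 (0.08) was not placed in any class list.

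Signal strength differed widely between members, with means over the 9 arrays of 4.95 to 12.10 and a median of 7.78, compared with 7.998 for all genes. Each probe set has its own response, so these signals give no order of transcript amounts. The 5 highest means were those of Trim28 (12.10), Trim35 (11.09), Trim27 (10.73), Trim56 (10.51) and Trim33 (10.40), and of these only Trim56 differed by over 0.1 in BAF-knockdown cells. The 5 lowest were those of Trim30e-ps1 (4.95), Trim12a (5.06), Trim38 (6.08), Trim36 (6.11) and Trim6 (6.21). A total of 19 members had a mean under 7, and whether these exceeded background was not tested.

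After 1 h of TNF most Trim transcripts of control cells lay close to their unstimulated level. The 58 differences ran from -0.28 to 0.46 with a median of -0.01 (-0.00 over all genes), 24 above 0 and 34 below, and 81.0% lay within 0.1 of 0, compared with 82.7% of all genes. Limma called 0 members (0.137% of all genes in either direction), while p before adjustment was under 0.05 for 1 higher and 1 lower (3.07% of all genes). The methods' t-test with a difference over 0.35 passed 1 member (0.584% of all genes) and 0 after adjustment, and 1 of the 58 reached a difference over 0.3 (1.51% of all genes). With the block, Trim47 was called higher (0.366% of all genes were). Arrays did not overlap in 1 member that was higher (3.19% of all genes) and in 4 that were lower (2.78%), namely Trim59, Trim35, Trim3 and Trim10.

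Trim47, a PRY-SPRY member, had signals of 9.82, 9.42 and 9.66 in TNF-treated control cells, against 9.29, 8.996 and 9.23 in unstimulated control cells. The groups did not overlap, and array 2 was the lowest in each. The difference was 0.46 ± 0.12, or 1.38-fold (limma adjusted p = 0.676, or 0.0415 with the block), with same-numbered differences of 0.53, 0.42 and 0.43. The blocked call was lost when all arrays of any 1 number were left out. In TNF-treated BAF-knockdown cells Trim47 had signals of 9.72, 9.54 and 9.49, inside the range of TNF-treated control cells, with a difference of -0.05 ± 0.12. Trim59 had signals of 9.98, 9.89 and 10.07 in TNF-treated control cells, against 10.21, 10.10 and 10.47 in unstimulated control cells, a difference of -0.28 ± 0.13 (adjusted p = 1.0). Trim35 had signals of 11.19, 11.10 and 10.90 in TNF-treated control cells, against 11.33, 11.19 and 11.20 in unstimulated control cells, a difference of -0.18 ± 0.08 (adjusted p = 1.0). The interferon-linked members had a median TNF difference of -0.03, with Trim30a at 0.10 ± 0.58, Trim12c at -0.09 ± 0.22 and Trim21 at -0.03 ± 0.14.

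Genes that work with TRIM ligases were set beside them in the knockdown comparison. Among 16 genes of RIG-I-like and STING signalling, limma called 0 (p before adjustment was under 0.05 for 4 higher and 1 lower), and the block called Ifih1 and Zc3hav1 higher and Sting1 lower. Over all genes 8.43% had such a p in either direction, and the block called 0.98% higher and 2.33% lower, the background for Ube2l6 and Mid1 as well. The SE given with each gene below is that of the fit without the block, also where the adjusted p is from the fit with it. Ifih1, which encodes the RNA sensor MDA5, had signals of 6.87, 6.68 and 7.09 in BAF-knockdown cells, against 6.48, 6.44 and 6.58 in TNF-treated control cells (0.38 ± 0.09, blocked adjusted p = 0.0326). Zc3hav1, the zinc-finger antiviral protein that in human cells works with Trim25, differed by 0.35 ± 0.15 (blocked adjusted p = 0.0081). Sting1, the adaptor of cytosolic DNA sensing, had signals of 9.84, 9.99 and 9.29 in BAF-knockdown cells, against 10.47, 10.50 and 10.46 in TNF-treated control cells (-0.77 ± 0.17, blocked adjusted p = 0.0127). Ddx58, which encodes RIG-I, differed by 0.58 ± 0.15 (adjusted p = 0.219, or 0.0943 with the block), and Ifnb1, the gene of interferon-β, by -0.02 ± 0.06. Of 12 ubiquitin-conjugating enzymes, Ube2l6, which also loads the ubiquitin-like ISG15, differed by 0.53 ± 0.12 and was called with the block only (adjusted p = 0.0253). Of 6 TRIM-type genes with other names, Mid1, a microtubule-bound COS-box ligase, differed by -0.45 ± 0.18 and was called lower with the block only (adjusted p = 0.0281), and Pml, the organiser of nuclear bodies, differed by 0.15 ± 0.07. After TNF, limma called 0 genes of these 3 lists in either fit (p before adjustment was under 0.05 for 1, higher). In the knockdown comparison 9 of the 10 fibroblast markers lay below 0, as did 8959 of all 19698 genes. Of these markers, Col3a1 (-0.93) and S100a4 (-1.18) were called lower with the block (2.33% of all genes were). The part of the fibroblast markers in the Trim differences was not tested.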

How the data were processed

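RNA of 9 cultures was measured on Affymetrix mouse Gene 1.0 ST arrays, 3 per group. The deposited values are log2 signals that the authors obtained by RMA (background correction, quantile normalization and median polish), for 27024 transcript clusters. The sources used here name no version of that software. Array medians lay between 7.77 and 7.83, and arrays give no read depth, so their number limits the precision. Platform annotation gave 1 symbol to 21319 clusters, several to 1430 and none to 4275. Of 930 genes with several clusters, the one with the highest mean was used. This left 19698 genes, and all 58 Trim genes had 1 cluster and matched RefSeq by symbol. A further 2 clusters that pair a Trim symbol with another gene were left out. The sources used here name no build for the array annotation, so coordinates are printed for promoters only (RefSeq, GRCm38.p6).

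Groups were compared in limma (version 3.58.1, R 4.3.3) by lmFit followed by eBayes, with a mean for each group over 9 arrays, 6 residual degrees of freedom and two-sided p-values adjusted by Benjamini-Hochberg over all genes. The fit without the block was tested on simulated data for the knockdown comparison, and the fit with the block was not. Promoters were aligned pairwise with Biopython 1.88. According to the methods the replicates were made independently on different days, without saying which number marks which day. Deviations from the group mean correlated at 0.21 to 0.724 between same-numbered arrays (9 pairs), and at -0.566 to 0.0111 between others (18 pairs). These deviations sum to 0 within a group, so the low values between other arrays are not separate evidence of pairing. Each same-numbered pair exceeded 0.1, so the number was used as a block in a second fit. Other alternatives were leaving out arrays, dim genes left out, median centring, array weights, only the arrays compared, every cluster tested on its own and the methods' t-test, which the methods state for TNF induction only.

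Values on every array were given for members called in either fit and for those among the 6 largest differences of a comparison whose arrays did not overlap. Interferon-linked members, the 5 highest and 5 lowest signals and 2 to 4 members per class were named too. The members, classes, lists and motifs were chosen with earlier results of these data known.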

Additional observations from a re-analysis of the deposited data

How the results depend on the processing

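For the knockdown, 0 Trim genes were called without a block. The count was 2 with the replicate block (Trim2 and Trim30a), 5 with the block and without replicate 2 (these 2, Trim12c, Trim16 and Trim30e-ps1), 0 with the block and without replicate 1 or 3, and 4 by a t-test with a difference over 0.3 before adjustment (Trim12c, Trim21, Trim2 and Trim16), a test that the methods name for TNF induction only. Leaving out 1 array gave 0 to 2, with 2 calls (Trim12c and Trim2) only without BAF-knockdown array 2. For the settings that left out arrays, the share of all genes called is not given here. The counts in those settings are therefore not read as results about the family. After TNF the count was 0, against 1 with the replicate block and 1 by the methods' t-test before adjustment (Trim47 in both), and 0 to 0 when 1 array was left out. Dim genes left out, median centring, array weights, only the arrays compared and every cluster tested on its own gave 0 calls in both comparisons.

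The cluster shared by Trim5, Trim12a and Trim12c lost its call in 4 further settings: with the block and without replicate 1 (0.96, adjusted p = 0.393), with the block and without replicate 3 (0.88, adjusted p = 0.110), with only the arrays compared (1.01, adjusted p = 0.174), and by the t-test once adjusted (1.01, adjusted p = 0.869). Leaving out 1 array gave differences of 0.89 to 1.14. In the comparison that named them, the 9 genes with values on every array by the naming rule kept their direction in each alternative. In the other comparison some did not, such as Trim30a after TNF, which ran from -0.49 to 0.60. Of all 58 members, 27 changed sign in at least 1 alternative for the knockdown, and 35 after TNF. In the fit without the block on all arrays, the differences of these members were at most 0.11 in size in either comparison. In the alternatives they could be larger. Trim30d ran from -0.61 to 0.60 for the knockdown and from -0.75 to 0.61 after TNF. The causes of these shifts were not tested. With 3 arrays per group, differences near the spread between arrays cannot be resolved. When 1 array was left out, its group kept 2 and the spread was pooled over groups. Whether paralogs such as Trim30a and Trim30d share probes was not tested.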
